A study of Sorghum bicolor with 12 samples.

Results

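The comparison described here is the first step of internode growth in sorghum stems, Int2 against Int1. Its members are the 24255 transcripts, of 47205 in the deposited table, whose mean RPKM (a read count scaled to transcript length and library size) reached 1 in Int2 or in Int1, and they belong to 18822 loci. RNA-seq libraries were made from 4 successive internodes of R.07020, a photoperiod-sensitive bioenergy sorghum inbred, grown in a growth chamber under 14-h days and harvested 60 days after planting while vegetative. Int2 is the second visible internode below the shoot apex and Int1, directly above it, the youngest. Int3 and Int4 are the older internodes that follow below. Each internode has 3 libraries, 1 from each of 3 plants, so that Int2 and Int1 libraries of the same number share a plant. No treatment, transgene or second genotype is part of the series. Leaves and leaf sheaths were removed and whole internodes were used, so each library mixes pith parenchyma, vascular bundles and epidermis. In such bulk tissue a lower level from fewer cells of a type and one from less RNA per cell cannot be told apart.

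A grass internode arises from cells that divide near the shoot apex. Its cells then elongate while the wall around them is loosened and new wall is laid down, and in the bundles and the sclerenchyma a thick, lignified secondary wall follows. In Arabidopsis, cellulose of the primary wall is made by the synthases CESA1, CESA3 and the CESA6 group, and cellulose of the secondary wall by CESA4, CESA7 and CESA8. UDP-glucose dehydrogenase and UDP-xylose synthase supply the sugars of xylan and other matrix polysaccharides. Expansins and xyloglucan endotransglucosylase/hydrolases (XTH) loosen or rejoin wall polymers, and the phenylpropanoid pathway, which starts at phenylalanine ammonia-lyase (PAL), supplies lignin and flavonoids.

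Of the transcripts tested, 23030 reached a mean RPKM of 1 in Int2 and 23235 in Int1. Both internodes shared 22010 of them, 1020 reached it in Int2 only and 1225 in Int1 only. Near the minimum, 567 members had a higher mean of 1 to 1.1 RPKM, and 546 transcripts with 0.9 to 1 RPKM lay just outside. Most members differed little. The median log2 fold change, Int2 minus Int1 on log2(RPKM + 0.5), was -0.08, and 1184 transcripts had a difference of at least 1 in either direction.

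Larger differences were mostly increases. With a change of 2-fold or more, an average of 2 RPKM or more in either internode and an adjusted p under 0.05, 827 transcripts (3.41% of those tested) were called by limma with Benjamini-Hochberg adjustment. Of these, 608 (2.51%) rose in Int2 and 219 (0.903%) fell. At an adjusted p under 0.001, 133 transcripts (0.548%) were called, 122 (0.503%) higher and 11 (0.0454%) lower. With plant as a block in the same 12 libraries, 84 transcripts passed this stricter threshold and 789 the wider one. Of the 122 increases 72 passed the stricter threshold again, and of the 11 decreases 3. At the wider one 575 of the 608 increases and 204 of the 219 decreases did. A fit on the 6 Int2 and Int1 libraries alone called 0 transcripts at the stricter threshold, with a smallest adjusted p of 0.00181, but 891 at the wider one, and 9045 transcripts had an unadjusted p under 0.05. The groups below are therefore described at the wider threshold. Unless stated otherwise, adjusted p is from the fit without the block, and transcripts that also passed the stricter threshold in that fit can be told by it.

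**Figure D1:**
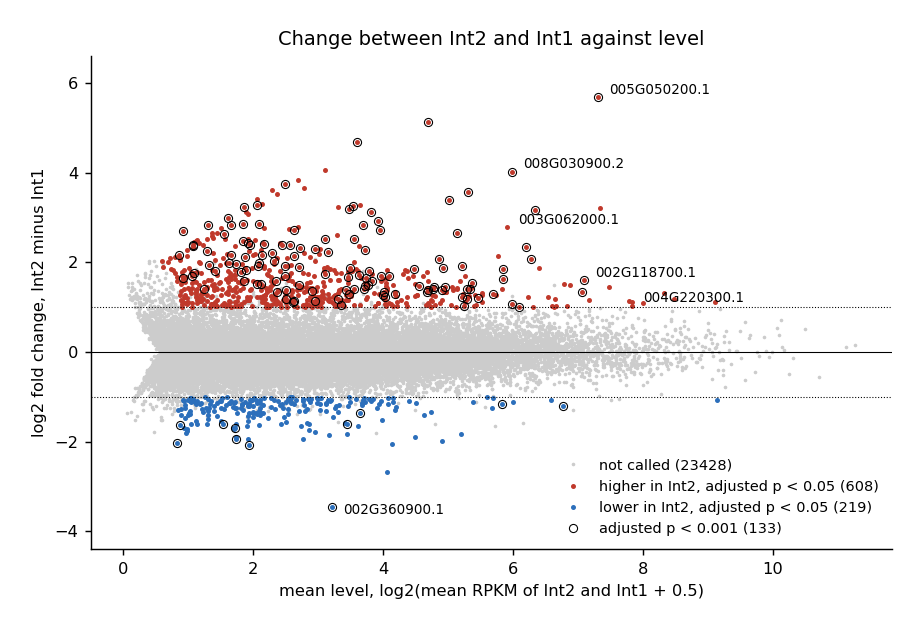
Log2 fold change of Int2 minus Int1 (y axis) against the mean level of both internodes on a log2 scale (x axis) for the 24255 transcripts tested, with increases called at an adjusted p under 0.05 in red, decreases in blue, and black rings at an adjusted p under 0.001. The 608 increases reach a log2 fold change of 5.68 and spread over most of the range of levels, while the 219 decreases lie between -3.45 and the dotted 2-fold line.

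All 608 transcripts that rose were higher in Int2 than in Int1 in each of the 3 plants, as were 23.9% of all transcripts tested, and in 604 the 3 Int2 libraries did not overlap the 3 Int1 libraries. Over all transcripts tested, Int2 libraries lay wholly above Int1 libraries in 16.8% and wholly below in 26.0%, but with each library scaled by its median ratio the shares were 21.7% and 19.8%, so the balance of small differences turned with the scaling. The median increase was 1.41 on the log2 scale, and 112 increases were at least 4-fold. All 219 transcripts that fell were lower in Int2 in each plant (36.8% of all tested) and had non-overlapping libraries. Their median log2 fold change was -1.20, and 5 fell at least 4-fold. Under median-ratio scaling 607 of the 608 increases and 166 of the 219 decreases were still called.

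Among the Int2 libraries, replicate 3 stood nearest to Int1. It was the lowest Int2 library for 445 of the 608 increases and the highest for 143 of the 219 decreases. The median difference from the Int1 mean was 1.14 in Int2 replicate 3, against 1.57 in replicate 1 and 1.56 in replicate 2, on the log2 scale. For the decreases it was -1.05, against -1.33 and -1.31. Int1 libraries differed less, with medians of 1.29 to 1.53 for the increases when each was set against the Int2 mean. Without Int2 replicate 3, 228 transcripts passed the stricter threshold and 1038 the wider one, 566 of the 608 increases and 196 of the 219 decreases among them. Without Int2 replicate 2 the counts were 33 and 581. The libraries differed little in depth: relative to Int1 replicate 1, Int2 libraries had 0.856 to 0.892 and Int1 libraries 0.91 to 1.03, estimated from the spacing of low RPKM values.

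**Figure D2:**
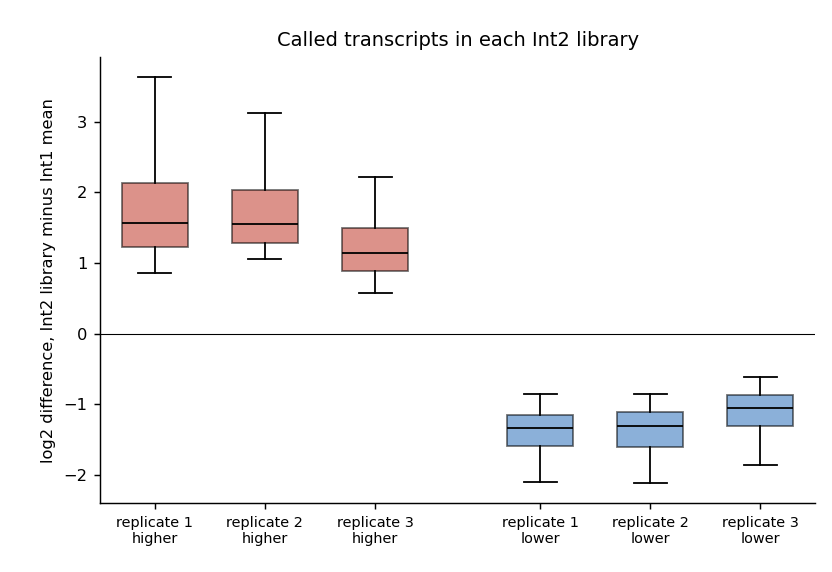
Log2 difference between each Int2 library and the mean of the Int1 libraries (y axis) for the 608 transcripts called higher (red) and the 219 called lower (blue). Boxes span the quartiles with a line at the median, and whiskers run from the 5th to the 95th percentile. Replicate 3 has the median nearest 0 in both sets, 1.14 and -1.05.

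The largest increase was in Sobic.005G050200.1. It had 369, 383 and 182 RPKM in Int2, against 4.58, 9.58 and 3.24 RPKM in Int1 (log2 fold change 5.68, SE 0.34, adjusted p = 1.59e-05). Every Int2 library lay far above every Int1 library, and replicate 3 was the lowest of the Int2 libraries. Sobic.010G044500.1 had 64.8, 63 and 22.8 RPKM in Int2, against 0.61, 0.73 and 1.14 RPKM in Int1 (log2 fold change 5.13, SE 0.33, adjusted p = 1.96e-05). Sobic.001G406901.1 had 32.2, 25.2 and 11.1 RPKM in Int2, against 0.29, 0.48 and 0.23 RPKM in Int1 (log2 fold change 4.69, SE 0.31, adjusted p = 2.41e-05). These transcripts have no annotation in the sources used here, nor have 7 others of the 15 largest increases at the stricter threshold, whose log2 fold changes ran from 2.93 (Sobic.002G005400.1) to 3.75 (Sobic.009G105300.1). Among all 608 increases, 3 transcripts were listed at 0 in every Int1 library. Of these, Sobic.003G108000.1 had 2.46, 2.1 and 3.85 RPKM in Int2 (adjusted p = 2.82e-05). Sobic.001G068500.1 had 12.4, 8.83 and 0.78 RPKM in Int2 (adjusted p = 0.00604). Sobic.003G232400.1 had 6.26, 3.6 and 0.31 RPKM in Int2 (adjusted p = 0.0204), and its call was lost without Int2 replicate 1 or 2 or Int1 replicate 1, 2 or 3 (log2 fold change 1.87 to 2.50, adjusted p = 0.0538 to 0.082). In the last 2 the level of replicate 3 was close to that of Int1.

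Some increases called only at the wider threshold were as large. The 5 annotated transcripts among these 15 increases of the stricter threshold belong to lipid transfer, wall loosening and secondary metabolism. Sobic.008G030900.2, a non-specific lipid transfer protein by its best Arabidopsis match, had 206, 111 and 42.4 RPKM in Int2, against 7.22, 4.04 and 6.18 RPKM in Int1 (log2 fold change 4.01, SE 0.43, adjusted p = 0.000324). Such proteins bind lipids and in many plants are secreted to the wall and cuticle. Int2 replicate 1 was the highest and replicate 3 the lowest, and without replicate 3 the log2 fold change was 4.62. Sobic.009G197000.1, an O-methyltransferase of phenylpropanoid metabolism, had 194, 149.7 and 95.3 RPKM in Int2, against 18.6, 12.7 and 14.7 RPKM in Int1 (log2 fold change 3.17, SE 0.25, adjusted p = 4.36e-05). The other annotated increases, an XTH, a β-expansin and a transcript placed with anthocyanidin reductase, are given with their groups. With plant as a block in the 12 libraries, none of these passed the stricter threshold (adjusted p = 0.00145 to 0.00192).

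The decreases were fewer. The median transcript that fell averaged 2.07 RPKM in Int2 and 5.59 RPKM in Int1, and the median transcript that rose averaged 8.19 RPKM in Int2 and 2.45 RPKM in Int1. Only 10 genes could be taken from the stricter threshold, and with the 5 largest further decreases of the wider one they make 15, none of which has an annotation in the sources used here. Some annotated decreases called only at the wider threshold are given with their groups. Sobic.002G360900.1 fell most, with 1.13, 1.42 and 0.66 RPKM in Int2, against 19.4, 15.7 and 14.3 RPKM in Int1 (log2 fold change -3.45, SE 0.24, adjusted p = 2.82e-05). Sobic.006G092300.1 had 0.27, 0.28 and 0.06 RPKM in Int2, against 2.31, 2.28 and 2.48 RPKM in Int1 (log2 fold change -2.04, SE 0.16, adjusted p = 5.39e-05). Both were close to 0 in older internodes, where Sobic.002G360900.1 averaged 0.223 RPKM in Int3 and 0.107 RPKM in Int4. Sobic.006G014500.1 had 2.61, 3.54 and 6.26 RPKM in Int2, against 25.9, 24.8 and 33.6 RPKM in Int1 (log2 fold change -2.69, SE 0.38, adjusted p = 0.0013), with replicate 3 the highest of Int2. The most abundant of these 15 was Sobic.003G378000.1. It had 59.8, 64 and 73.5 RPKM in Int2, against 139, 156 and 161 RPKM in Int1 (log2 fold change -1.21, SE 0.15, adjusted p = 0.000771), and its libraries within each internode lay close together.

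Functional categories were taken from the study's own table of transcripts that differed between internodes. The copy used here stops within the flavonoids of secondary metabolism, so the flavonoid category is cut short. This copy holds 770 transcripts, 678 of them among the members. The table was drawn up by the study on these same libraries, so a share of calls above that of all transcripts is no independent evidence. Of its members, 71 (10.5%) rose and 13 (1.92%) fell, against 2.51% and 0.903% of all transcripts tested, and the median log2 fold change was 0.19, against -0.08. Counts of calls in the categories below are to be read beside these shares. Categories listed after flavonoids, such as the cell cycle, hormones and transcription factors, were not analysed here. Medians were highest for flavonoid (0.81), COBRA (0.79), cellulose synthase (0.72), wall precursor (0.70) and lignin (0.64) categories.

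**Figure D3:**
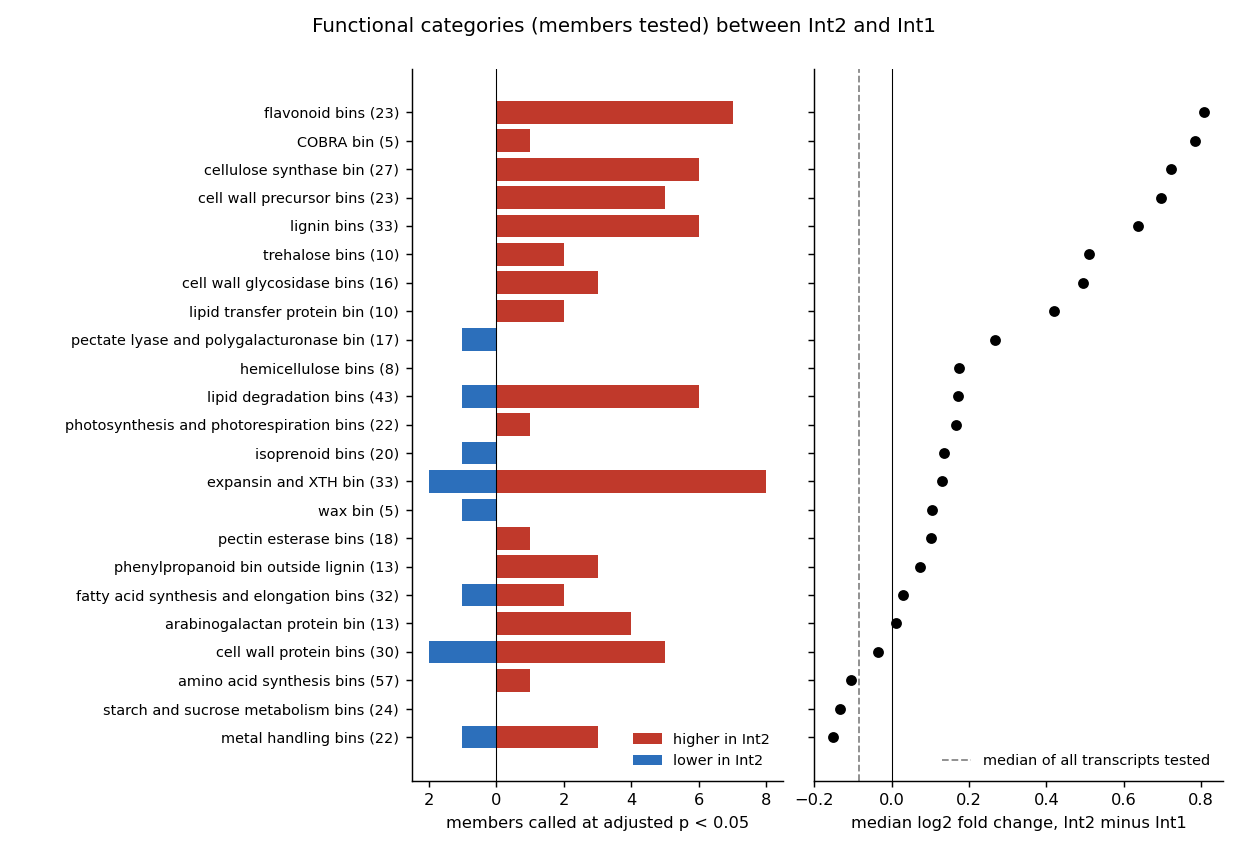
Left, number of members called higher (red, to the right) and lower (blue, to the left) in Int2 at an adjusted p under 0.05, for 23 functional categories with the members tested in parentheses. Right, median log2 fold change of the tested members of each category, with a dashed line at the median of all transcripts (-0.08). Increases outnumber decreases in most categories, and the flavonoid category, which is cut short in the copy used, has the highest median (0.81).

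In the cellulose synthase category, 6 of 27 members tested rose and 0 fell, with a median log2 fold change of 0.72. The shares were 10.5% and 1.92% over the functional table, and 2.51% and 0.903% over all transcripts tested. The rise took in the transcripts whose best Arabidopsis matches are the secondary-wall synthases. Sobic.003G296400.1, matching CESA8, had 26.8, 19.6 and 7.07 RPKM in Int2, against 3.81, 4.34 and 4.2 RPKM in Int1 (log2 fold change 1.80, SE 0.38, adjusted p = 0.0102). Sobic.001G224300.1, matching CESA4, had 24, 17.6 and 7.64 RPKM in Int2, against 3.53, 4.82 and 5.17 RPKM in Int1 (log2 fold change 1.63, SE 0.37, adjusted p = 0.0145). Sobic.002G205500.1, matching CESA7, had 22.1, 16.4 and 5.88 RPKM in Int2, against 3.09, 4.2 and 4.52 RPKM in Int1 (log2 fold change 1.61, SE 0.40, adjusted p = 0.0208). The order of the Int2 libraries was the same in all 3 transcripts, with replicate 1 highest and replicate 3 lowest, and replicate 3 was only just above Int1. That order is not particular to them. Of all 608 increases, replicate 1 was the highest Int2 library in 326 and replicate 3 the lowest in 445, and the share with both was not computed. These levels were small beside the later internodes, where Sobic.003G296400.1 averaged 205 RPKM in Int3. The CESA4 match was no longer called without Int2 replicate 1 or 2 or Int1 replicate 1 (log2 fold change 1.29 to 1.51, adjusted p = 0.0579 to 0.0622). The CESA7 match was no longer called without Int2 replicate 1 or 2 or Int1 replicate 1 or 3 (log2 fold change 1.24 to 1.71, adjusted p = 0.0502 to 0.0825). The CESA8 match kept its call when any one library was left out, but only narrowly without Int2 replicate 2 (log2 fold change 1.64, adjusted p = 0.0495). Without Int2 replicate 3 its log2 fold change was 2.35.

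Cellulose synthases matching primary-wall genes were more abundant. Sobic.002G118700.1, matching CESA2 of the CESA6 group, had 202, 224 and 189 RPKM in Int2, against 59.4, 60.8 and 84.5 RPKM in Int1 (log2 fold change 1.60, SE 0.14, adjusted p = 0.000102). It passed the stricter threshold, and its 3 Int2 libraries lay close together. A second transcript of the gene, Sobic.002G118700.3, had 102, 96.2 and 48.5 RPKM in Int2, against 36.9, 38 and 17.8 RPKM in Int1 (log2 fold change 1.4, SE 0.41, adjusted p = 0.0416), and lost its call without a filter on low values (adjusted p = 0.0657) and without Int2 replicate 1 or 2 or Int1 replicate 1, 2 or 3 (log2 fold change 1.05 to 1.58, adjusted p = 0.0577 to 0.146). Reads can be divided between transcripts of 1 gene, so these are less certain than values of genes with 1 transcript. The most abundant member, Sobic.009G063400.1, matching CESA1, had 305, 278 and 240.1 RPKM in Int2, against 149.8, 150.3 and 144 RPKM in Int1 (log2 fold change 0.88, SE 0.10, adjusted p = 0.000454). Its libraries did not overlap and its adjusted p was low, but it stayed below the 2-fold minimum. Sobic.006G282300.1 matches KORRIGAN, a membrane-bound endoglucanase needed for cellulose synthesis in Arabidopsis, and had 20.3, 22.5 and 12.7 RPKM in Int2, against 4.79, 6.23 and 3.72 RPKM in Int1 (log2 fold change 1.80, SE 0.29, adjusted p = 0.00284).

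COBRA proteins are anchored at the cell surface and orient or assemble cellulose. In this category 1 of 5 members tested rose and 0 fell, against 10.5% and 1.92% over the functional table. Sobic.001G336700.1, whose best match is the secondary-wall member COBL4, had 9.49, 4.71 and 1.77 RPKM in Int2, against 1.04, 0.67 and 0.59 RPKM in Int1 (log2 fold change 1.97, SE 0.43, adjusted p = 0.0119). Its Int2 libraries followed the order of the secondary-wall cellulose synthases. The most abundant member, Sobic.001G086200.1, matches COBRA itself and had 277, 279.6 and 231 RPKM in Int2, against 155, 163 and 138 RPKM in Int1 (log2 fold change 0.79, SE 0.11, adjusted p = 0.0012), which was below the 2-fold minimum.

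**Figure D4:**
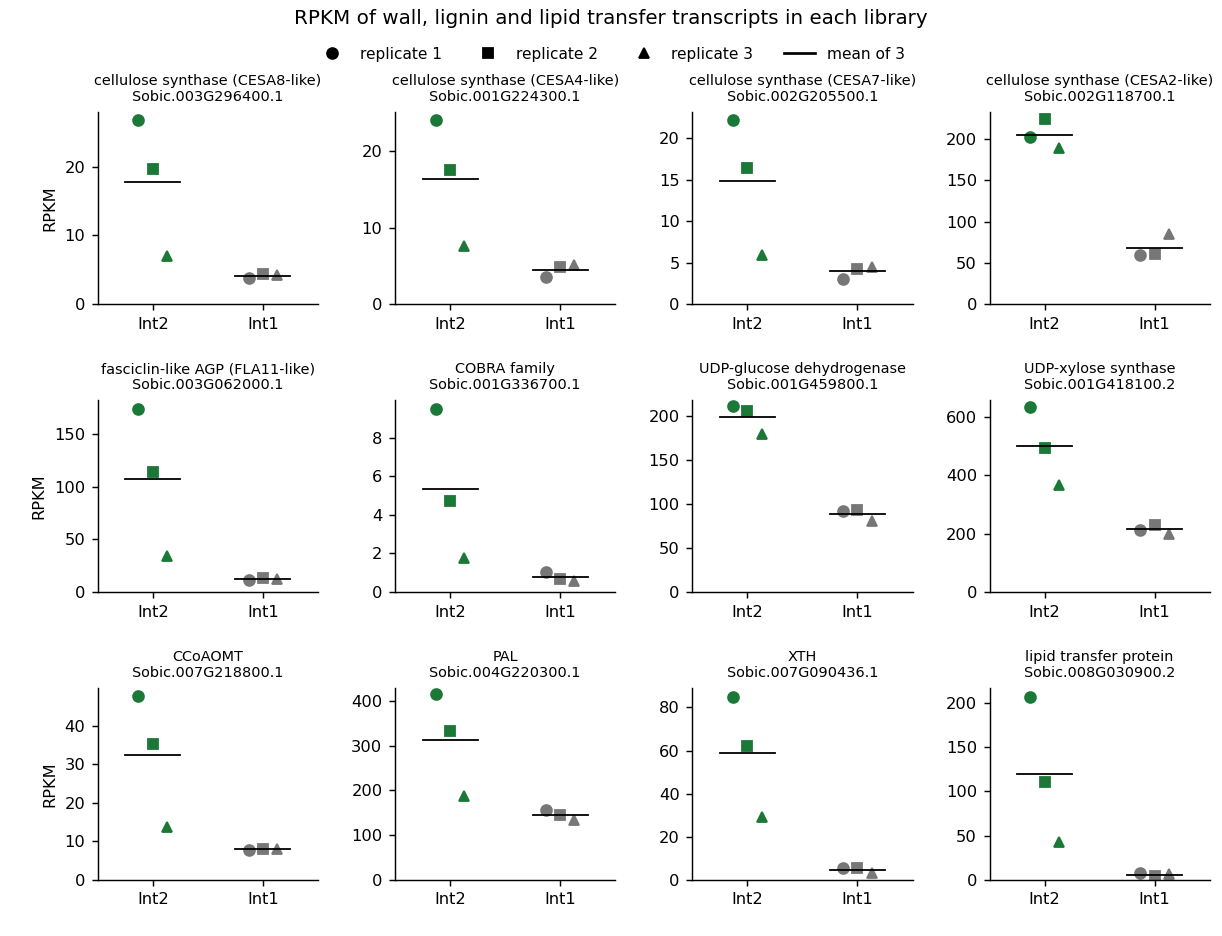
RPKM (y axes, each from 0) in the 3 Int2 libraries (green, left) and the 3 Int1 libraries (grey, right) for 12 transcripts, with a symbol for each replicate number and a line at the mean. Replicate 3 is the lowest Int2 library in all 12 panels, which were picked, and was the lowest for 445 of all 608 increases. The secondary-wall cellulose synthases, FLA11 match, COBRA family member and CCoAOMT spread widely in Int2, whereas the CESA2 match and UDP-glucose dehydrogenase sit close together.

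In the category of wall precursors, whose enzymes make wall sugars, 5 of 23 members tested rose and 0 fell, against 10.5% and 1.92% over the functional table. The 5 were transcripts of 3 genes, and the summed level was 1524 to 2025 RPKM in Int2, against 951 to 1047 RPKM in Int1. Sobic.001G459800.1, a UDP-glucose dehydrogenase, had 211, 206 and 179 RPKM in Int2, against 91.6, 93.2 and 80.2 RPKM in Int1 (log2 fold change 1.17, SE 0.18, adjusted p = 0.00214). Of the same enzyme, 3 transcripts of the gene Sobic.001G084100 rose, and the summed RPKM of all its transcripts gave a log2 fold change of 1.25 (adjusted p = 0.000637). The main one, Sobic.001G084100.1, had 357, 224 and 206 RPKM in Int2, against 114, 88.2 and 78.4 RPKM in Int1 (log2 fold change 1.46, SE 0.28, adjusted p = 0.00629). Sobic.001G084100.4 had 59.5, 105 and 102 RPKM in Int2, against 20.6, 19 and 17.9 RPKM in Int1 (log2 fold change 2.14, SE 0.43, adjusted p = 0.00802). Sobic.001G084100.2 had 50.9, 52 and 49.3 RPKM in Int2, against 19.1, 19 and 17.3 RPKM in Int1 (log2 fold change 1.44, SE 0.32, adjusted p = 0.0139), and lost its call without Int2 replicate 2 or Int1 replicate 3 (log2 fold change 1.39 to 1.42, adjusted p = 0.052 to 0.0522). The plants ranked differently, since replicate 1 was the highest Int2 library for Sobic.001G084100.1 and the lowest for Sobic.001G084100.4. Sobic.001G418100.2, matching the UDP-xylose synthase UXS6, was among the most abundant increases, with 636, 495 and 368 RPKM in Int2, against 213, 231 and 199 RPKM in Int1 (log2 fold change 1.19, SE 0.21, adjusted p = 0.00465). It stayed just short of 2-fold without Int2 replicate 1 (log2 fold change 0.99, adjusted p = 0.0187). No hemicellulose member passed (0 of 8 tested, median 0.175), and the most abundant, the glucuronoxylan transcript Sobic.003G376700.1, had 123, 125 and 149 RPKM in Int2, against 117, 118 and 128 RPKM in Int1 (log2 fold change 0.12, SE 0.11, adjusted p = 0.478).

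Among wall proteins, increases and decreases stood side by side, where 10.5% rose and 1.92% fell over the functional table. In the whole category 5 of 30 members tested rose and 2 fell, with a median of -0.04, and in its arabinogalactan protein part 4 of 13 rose and 0 fell, with a median of 0.01. Sobic.003G062000.1 matches FLA11, a fasciclin-like arabinogalactan protein of secondary walls in Arabidopsis, and had 174, 114 and 33.9 RPKM in Int2, against 11.7, 13 and 12.4 RPKM in Int1 (log2 fold change 2.78, SE 0.47, adjusted p = 0.00358). All Int2 libraries were above Int1, but the value in replicate 3 was far below the other two, and without it the log2 fold change was 3.46. A second FLA11 match, Sobic.003G250700.1, had 143, 139 and 109 RPKM in Int2, against 62.1, 74.3 and 55.5 RPKM in Int1 (log2 fold change 1.02, SE 0.21, adjusted p = 0.0095), and fell below 2-fold without Int2 replicate 1 or 2 or Int1 replicate 3 (log2 fold change 0.92 to 0.97, adjusted p = 0.0414 to 0.044). Sobic.002G154600.1, another fasciclin-like protein, had 8.91, 6.74 and 3.76 RPKM in Int2, against 0.51, 1.16 and 0.45 RPKM in Int1 (log2 fold change 2.50, SE 0.36, adjusted p = 0.00147). The fourth, Sobic.002G244300.1, had a log2 fold change of 1.43 (adjusted p = 0.0216) and lost its call without Int2 replicate 1 or 2 or Int1 replicate 1 or 3 (log2 fold change 1.1 to 1.43, adjusted p = 0.0622 to 0.0844). Leucine-rich repeat wall proteins went both ways. Sobic.006G260200.1 had 12.4, 15 and 12.2 RPKM in Int2, against 3.23, 5.25 and 1.85 RPKM in Int1 (log2 fold change 1.89, SE 0.34, adjusted p = 0.00501). Sobic.003G283900.1, matching the receptor-like protein RLP29, had 1.1, 0.56 and 1.53 RPKM in Int2, against 4.65, 4.29 and 4.56 RPKM in Int1 (log2 fold change -1.73, SE 0.23, adjusted p = 0.00122). Sobic.009G208300.1, with the same best match, had 1.85, 1.77 and 1.57 RPKM in Int2, against 5.88, 2.75 and 5.83 RPKM in Int1 (log2 fold change -1.19, SE 0.29, adjusted p = 0.0218), and its call was lost without Int2 replicate 1, 2 or 3 or Int1 replicate 1 or 3 (log2 fold change -1.03 to -1.23, adjusted p = 0.0514 to 0.0861).

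The expansin and XTH category had the largest number of calls, 8 higher and 2 lower of 33 tested, with a median of 0.13. Shares over the functional table were 10.5% and 1.92%. The XTH Sobic.007G090436.1 had 85, 62.1 and 29.2 RPKM in Int2, against 5.3, 5.57 and 3.37 RPKM in Int1 (log2 fold change 3.40, SE 0.41, adjusted p = 0.000706). Its neighbour by identifier, Sobic.007G090460.1, with the same best Arabidopsis match, had 5.78, 5.18 and 2.57 RPKM in Int2, against 1.03, 1.38 and 0.78 RPKM in Int1 (log2 fold change 1.63, SE 0.39, adjusted p = 0.0192), and was not called without Int2 replicate 1 or 2 or Int1 replicate 1 or 3 (log2 fold change 1.44 to 1.62, adjusted p = 0.0576 to 0.0771). Genes this alike may share reads in the alignment. Sobic.001G538000.1, matching XTH32, was near 0 in Int1, with 4.14, 4.45 and 2.9 RPKM in Int2, against 0.11, 0.17 and 0.04 RPKM in Int1 (log2 fold change 2.82, SE 0.21, adjusted p = 3.5e-05). Sobic.001G309000.1 had 9.86, 14.9 and 12 RPKM in Int2, against 4.13, 5.26 and 6.75 RPKM in Int1 (log2 fold change 1.12, SE 0.23, adjusted p = 0.00875), and was not called without Int2 replicate 2 or Int1 replicate 1 (log2 fold change 0.96 to 0.98, adjusted p = 0.0382 to 0.0445). An XTH that fell, Sobic.001G179400.1, had 0.78, 0.75 and 2.03 RPKM in Int2, against 4.86, 3.36 and 5.15 RPKM in Int1 (log2 fold change -1.62, SE 0.38, adjusted p = 0.0174). That call was lost without Int2 replicate 1 or 2 or Int1 replicate 1 or 3 (log2 fold change -1.44 to -1.55, adjusted p = 0.0593 to 0.0741), and with a pseudocount of 0.1 (adjusted p = 0.0522). The most abundant member, the XTH Sobic.010G246700.1, had 707, 889 and 717 RPKM in Int2, against 371, 423 and 386 RPKM in Int1 (log2 fold change 0.96, SE 0.14, adjusted p = 0.00152), just under 2-fold.

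Expansins that rose were mostly β-expansins, the class that is large in grasses. Sobic.001G300700.1 had 11.7, 6.48 and 3.3 RPKM in Int2, against 0.07, 0.26 and 0.3 RPKM in Int1 (log2 fold change 3.29, SE 0.41, adjusted p = 0.00076). Sobic.001G301000.1 had 2.64, 2.84 and 1.48 RPKM in Int2, against 0, 0.41 and 0.07 RPKM in Int1 (log2 fold change 2.11, SE 0.32, adjusted p = 0.00205). The α-expansin Sobic.009G173700.1 had 10.4, 11.1 and 7.67 RPKM in Int2, against 3.83, 3.95 and 4.22 RPKM in Int1 (log2 fold change 1.17, SE 0.15, adjusted p = 0.00109). A pair of β-expansins with neighbouring identifiers and the same best match moved in opposite directions. Sobic.004G294400.1 had 3.25, 2.17 and 0.59 RPKM in Int2, against 0.06, 0 and 0.06 RPKM in Int1 (log2 fold change 2.04, SE 0.54, adjusted p = 0.03). Sobic.004G294300.1 had 3.6, 1.99 and 3.88 RPKM in Int2, against 8.6, 9.91 and 12.7 RPKM in Int1 (log2 fold change -1.60, SE 0.23, adjusted p = 0.00165). The libraries of both were separate between internodes. The increase lost its call with plant as a block in the 12 libraries (adjusted p = 0.0511), with a pseudocount of 1 (log2 fold change 1.42, adjusted p = 0.0639) and without Int2 replicate 1 or 2 or Int1 replicate 1, 2 or 3 (log2 fold change 1.66 to 2.07, adjusted p = 0.0749 to 0.114), whereas the decrease kept its call in these settings. The 6 called members beyond the 4 with the largest changes were named here after their values were seen.

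Calls were scattered among enzymes that cut or modify other wall polymers. Over all transcripts tested, 2.51% rose and 0.903% fell. Of 16 glycosidases tested, 3 rose and 0 fell, with a median log2 fold change of 0.50. Sobic.001G140300.1, matching an Arabidopsis protein with xylanase activity, had 3.76, 3.04 and 2.31 RPKM in Int2, against 0.14, 0.27 and 0.12 RPKM in Int1 (log2 fold change 2.37, SE 0.22, adjusted p = 0.000113). Sobic.005G110436.1, a glycosyl hydrolase, had 5.76, 4.79 and 1.47 RPKM in Int2, against 0.12, 0.37 and 0.06 RPKM in Int1 (log2 fold change 2.58, SE 0.49, adjusted p = 0.00604). Sobic.004G244600.1, a glycosyl hydrolase of family 9, had 3.29, 2.7 and 1.18 RPKM in Int2, against 0.4, 0.47 and 0.3 RPKM in Int1 (log2 fold change 1.62, SE 0.30, adjusted p = 0.00522), and its Int2 mean was under 2 RPKM, so that it was not called, without Int2 replicate 1 (log2 fold change 1.39, adjusted p = 0.0231). All were at most 5.76 RPKM in these internodes. Among pectate lyases and polygalacturonases 0 of 17 rose (median 0.27) and 1 fell, Sobic.004G113900.1, with 3.75, 3.84 and 3.8 RPKM in Int2, against 7.94, 7.75 and 10.6 RPKM in Int1 (log2 fold change -1.09, SE 0.24, adjusted p = 0.0122), a call that was lost without Int1 replicate 3 (log2 fold change -0.96, adjusted p = 0.0569). Of 18 pectin esterases (median 0.10) 0 fell and 1 rose, the pectin acetylesterase Sobic.003G094800.1, with 9.57, 9.23 and 5.85 RPKM in Int2, against 1.99, 3.09 and 1.99 RPKM in Int1 (log2 fold change 1.60, SE 0.21, adjusted p = 0.00109).

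In the lignin category 6 of 33 members tested rose and 0 fell, with a median of 0.64, against 10.5% and 1.92% over the functional table. PAL opens the pathway by removing ammonia from phenylalanine. The most abundant PAL transcript, Sobic.004G220300.1, had 415, 334 and 187 RPKM in Int2, against 155, 146 and 134 RPKM in Int1 (log2 fold change 1.03, SE 0.30, adjusted p = 0.0404). Its libraries did not overlap, but with plant as a block in the 12 libraries it was no longer called (adjusted p = 0.0543). The call was also lost without a filter on low values (adjusted p = 0.063), when Int3 replicate 2 or Int4 replicate 2 was left out of the fit, and without Int2 replicate 1 or 2 or Int1 replicate 1, 2 or 3 (log2 fold change 0.79 to 1.08, adjusted p = 0.0871 to 0.148). The caffeoyl-CoA O-methyltransferase (CCoAOMT) Sobic.007G218800.1 adds methyl groups to lignin precursors and had 47.8, 35.2 and 13.8 RPKM in Int2, against 7.65, 7.99 and 7.99 RPKM in Int1 (log2 fold change 1.80, SE 0.41, adjusted p = 0.0158). Replicate 1 was its highest and replicate 3 its lowest Int2 library, as in the secondary-wall cellulose synthases and in increases outside that group. Its call was lost without Int2 replicate 1 or 2 or Int1 replicate 1 or 3 (log2 fold change 1.43 to 1.81, adjusted p = 0.0503 to 0.0669). Sobic.004G212300.1 is annotated as HCT, a shikimate hydroxycinnamoyl transferase of the same pathway, and had 30.1, 25 and 17.6 RPKM in Int2, against 6.36, 9.51 and 7.73 RPKM in Int1 (log2 fold change 1.55, SE 0.25, adjusted p = 0.00271).

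Other lignin-pathway increases were lower in level. Sobic.004G065600.1, a cinnamoyl-CoA reductase (CCR), had 6.63, 7.28 and 6.11 RPKM in Int2, against 2.59, 2.97 and 2.8 RPKM in Int1 (log2 fold change 1.12, SE 0.15, adjusted p = 0.00107). Sobic.009G243400.1, placed with the same enzyme, had 2.67, 3.64 and 2.55 RPKM in Int2, against 0.65, 0.96 and 0.82 RPKM in Int1 (log2 fold change 1.39, SE 0.19, adjusted p = 0.00113). The glucosyltransferase Sobic.010G120200.1, placed with lignin synthesis, had 9.36, 9.48 and 5.01 RPKM in Int2, against 1.32, 1.75 and 1.22 RPKM in Int1 (log2 fold change 2.09, SE 0.29, adjusted p = 0.00131). Libraries of both internodes were separate in each. In amino acid synthesis, 1 of 57 members tested rose and 0 fell, with a median of -0.105. It was Sobic.006G066200.1, an arogenate dehydratase, the enzyme that makes phenylalanine, with 17.5, 20.4 and 18.7 RPKM in Int2, against 6.37, 6.34 and 6.58 RPKM in Int1 (log2 fold change 1.48, SE 0.14, adjusted p = 0.000118). Its Int2 libraries lay close together, without a lower replicate 3.

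O-methyltransferases accounted for the 3 increases among 13 phenylpropanoid members outside lignin, where 0 fell and the median was 0.07. Besides Sobic.009G197000.1, Sobic.005G101900.1 had 145, 147 and 106 RPKM in Int2, against 33.6, 45.5 and 28.5 RPKM in Int1 (log2 fold change 1.88, SE 0.32, adjusted p = 0.00342). Sobic.007G074800.1 had 9.88, 8.02 and 3.29 RPKM in Int2, against 0.77, 0.43 and 0.24 RPKM in Int1 (log2 fold change 2.86, SE 0.35, adjusted p = 0.000743). All 3 share the same best Arabidopsis match, an O-methyltransferase family protein, and their substrates are not given.

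Flavonoid transcripts had the highest median, with 7 of 23 tested higher and 0 lower in Int2. Placed with anthocyanidin reductase, a late enzyme of proanthocyanidin synthesis, were 4 of these, all with the same best match and identifiers close to each other. Sobic.006G227800.2 had 25.4, 21.2 and 12.3 RPKM in Int2, against 1.69, 2.45 and 0.99 RPKM in Int1 (log2 fold change 3.18, SE 0.41, adjusted p = 0.000961). Sobic.006G227300.1 had 9.18, 10.6 and 7.54 RPKM in Int2, against 2.31, 3.67 and 2.87 RPKM in Int1 (log2 fold change 1.49, SE 0.19, adjusted p = 0.0009). Sobic.006G227200.1 had 8.03, 6.33 and 4.28 RPKM in Int2, against 1.54, 2.42 and 1.86 RPKM in Int1 (log2 fold change 1.44, SE 0.23, adjusted p = 0.00301). Sobic.006G226700.1 was the lowest of the group and had 2.55, 3.25 and 1.95 RPKM in Int2, against 0.6, 0.9 and 0.25 RPKM in Int1 (log2 fold change 1.53, SE 0.25, adjusted p = 0.0028). Beyond Int2 they diverged, with Sobic.006G226700.1 at 39.6 RPKM and Sobic.006G227800.2 at 3.21 RPKM in Int4. The other 3 increases match flavonoid 3'-hydroxylase, a cytochrome P450. Sobic.001G363700.1 had 2.91, 2.89 and 2.55 RPKM in Int2, against 0.64, 0.47 and 0.33 RPKM in Int1 (log2 fold change 1.75, SE 0.19, adjusted p = 0.000351). Sobic.001G360700.1 had 6.63, 4.97 and 2.58 RPKM in Int2, against 0.81, 1.05 and 0.85 RPKM in Int1 (log2 fold change 1.82, SE 0.33, adjusted p = 0.00501). Sobic.009G162500.1 had 8.73, 6.32 and 2.43 RPKM in Int2, against 1.24, 1.74 and 1.49 RPKM in Int1 (log2 fold change 1.52, SE 0.39, adjusted p = 0.0263), and its call was lost without Int2 replicate 1 or 2 or Int1 replicate 1, 2 or 3 (log2 fold change 1.18 to 1.61, adjusted p = 0.0529 to 0.102).

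Lipid categories held scattered calls, where 10.5% rose and 1.92% fell over the functional table, against 2.51% and 0.903% of all transcripts tested. Lipid transfer proteins had 2 of 10 tested higher and 0 lower (median 0.42), Sobic.008G030900.2 above and the glycolipid transfer protein Sobic.006G087200.1, with 1.25, 3.16 and 2.88 RPKM in Int2, against 0.3, 0.79 and 0.57 RPKM in Int1 (log2 fold change 1.43, SE 0.29, adjusted p = 0.00837). The most abundant, Sobic.003G338700.1, had 113, 90.4 and 110.2 RPKM in Int2, against 108, 86.1 and 122 RPKM in Int1 (log2 fold change -0.004, adjusted p = 0.987), and the internodes overlapped. In lipid degradation 6 of 43 rose and 1 fell, with a median of 0.17. The lipase Sobic.001G295700.1 had 4.31, 6.1 and 5.51 RPKM in Int2, against 1.31, 1.31 and 0.81 RPKM in Int1 (log2 fold change 1.82, SE 0.15, adjusted p = 7.6e-05). The lipase Sobic.003G038000.1 had 22.7, 15.1 and 10.1 RPKM in Int2, against 6.32, 5.34 and 3.5 RPKM in Int1 (log2 fold change 1.53, SE 0.37, adjusted p = 0.0198), and was not called without Int2 replicate 1 or 2 or Int1 replicate 3 (log2 fold change 1.24 to 1.53, adjusted p = 0.0649 to 0.0819). Fatty acid synthesis (median 0.03) had 2 of 32 higher and 1 lower, the acyl carrier protein desaturase Sobic.001G265300.1, with 1.29, 1.17 and 1.44 RPKM in Int2, against 3.96, 3.1 and 3.04 RPKM in Int1 (log2 fold change -1.1, SE 0.16, adjusted p = 0.00169). It fell just short of 2-fold with a pseudocount of 1 (log2 fold change -0.92) and without Int1 replicate 1 (log2 fold change -0.99, adjusted p = 0.00886). Wax (median 0.10) had 0 of 5 higher and 1 lower, Sobic.002G268500.1, matching the fatty acid elongase KCS4, with 0.6, 0.55 and 1.06 RPKM in Int2, against 1.81, 2.07 and 2.4 RPKM in Int1 (log2 fold change -1.08, SE 0.19, adjusted p = 0.00396), a call that was lost to the 2-fold or the 2 RPKM minimum with a pseudocount of 1 (log2 fold change -0.84), with median-ratio scaling (-1.02) and without Int2 replicate 2 or Int1 replicate 3 (log2 fold change -0.98 to -1.0, adjusted p = 0.0204 to 0.0234). Among isoprenoid transcripts (median 0.135) 0 of 20 rose and 1 fell, the phytoene synthase Sobic.002G292600.1, which opens carotenoid synthesis, with 8.95, 11.1 and 11.3 RPKM in Int2, against 16.2, 22.8 and 27.8 RPKM in Int1 (log2 fold change -1.03, SE 0.19, adjusted p = 0.0054). With median-ratio scaling it was just under 2-fold (log2 fold change -0.95), as it was with a pseudocount of 1 (-0.996) and without Int2 replicate 1 or Int1 replicate 2 or 3 (log2 fold change -0.85 to -0.99, adjusted p = 0.0215 to 0.0261).

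In sugar metabolism, calls were confined to the trehalose category. Over all transcripts tested, 2.51% rose and 0.903% fell. None of 24 starch and sucrose members was called (0 higher, 0 lower, median -0.13), and the main sucrose synthase, Sobic.010G072300.1, had 157, 197 and 203 RPKM in Int2, against 156, 175 and 145 RPKM in Int1 (log2 fold change 0.22, SE 0.16, adjusted p = 0.36). Of 10 trehalose members (median 0.51) 2 rose and 0 fell, both trehalose-6-phosphate phosphatases, which turn the signal sugar trehalose-6-phosphate into trehalose. Sobic.004G293500.3 had 1.89, 3.52 and 3.7 RPKM in Int2, against 0.12, 0.18 and 0.18 RPKM in Int1 (log2 fold change 2.38, SE 0.21, adjusted p = 9.05e-05), and replicate 3 was its highest Int2 library. The abundant Sobic.002G184600.1 had 122, 136 and 138 RPKM in Int2, against 73.2, 66.2 and 58.1 RPKM in Int1 (log2 fold change 1.0, SE 0.26, adjusted p = 0.0245). It sat at the 2-fold minimum, and its call was lost with a pseudocount of 1 (log2 fold change 0.997) and without Int2 replicate 1, 2 or 3 or Int1 replicate 1, 2 or 3 (log2 fold change 0.92 to 1.08, adjusted p = 0.0501 to 0.0875).

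Photosynthesis and photorespiration members summed to 415 to 473 RPKM in Int2, against 363 to 405 RPKM in Int1. Their median log2 fold change was 0.17, and 1 of 22 tested rose, the ribulose-phosphate epimerase Sobic.001G491000.4 (log2 fold change 1.06, adjusted p = 0.00109). Summed over the transcripts of its locus, that change was 0.42, below 2-fold, and it was also below 2-fold without Int2 replicate 3 (log2 fold change 0.95, adjusted p = 0.00232). The most abundant member, Sobic.001G003100.1, matching chaperonin-60 alpha, averaged 67.3 RPKM in Int2 and 80.5 RPKM in Int1 (log2 fold change -0.25, adjusted p = 0.0622). Of the 22 tested, 14 had a positive log2 fold change. Whether the sum follows green tissue was not tested, nor was the part of green tissue in the other results. Metal-handling members summed to 1574 to 1859 RPKM in Int2, against 2038 to 2832 RPKM in Int1, with 3 of 22 higher, 1 lower and a median of -0.15. Much of the metal-handling sum is the metallothionein Sobic.003G071901.1, a small metal-binding protein, with 1184, 1411 and 1449 RPKM in Int2, against 1611, 2084 and 2321 RPKM in Int1 (log2 fold change -0.56, SE 0.26, adjusted p = 0.155). Its libraries did not overlap, but it was not called.

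Most transcripts that rose at this step were higher still further down the stem. A call at this step leaves out Int1 as the highest internode for an increase and Int2 for a decrease. Matching shares over all transcripts tested were not computed. Of the 608 transcripts, 96 were highest in Int2, 249 in Int3 and 263 in Int4. Their median level was 2.45 RPKM in Int1, 8.19 RPKM in Int2, 21.2 RPKM in Int3 and finally 21.6 RPKM in Int4. The FLA11 match Sobic.003G062000.1 averaged 12.3 RPKM in Int1, 107 RPKM in Int2, 294 RPKM in Int3 and 275 RPKM in Int4. The lipid transfer protein Sobic.008G030900.2 was one of those that were highest in Int2, with means of 5.81 RPKM in Int1, 119.9 RPKM in Int2, 26.8 RPKM in Int3 and 23 RPKM in Int4. Of the 219 transcripts that fell, 196 were highest in Int1 and 22 in Int4, and 47 had their lowest mean in Int2. Their median level was 5.59 RPKM in Int1, 2.07 RPKM in Int2, 1.29 RPKM in Int3 and finally 1.35 RPKM in Int4. The β-expansin Sobic.004G294300.1 was one that came back, at 2.38 RPKM in Int3 and 20.8 RPKM in Int4.

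**Figure D5:**
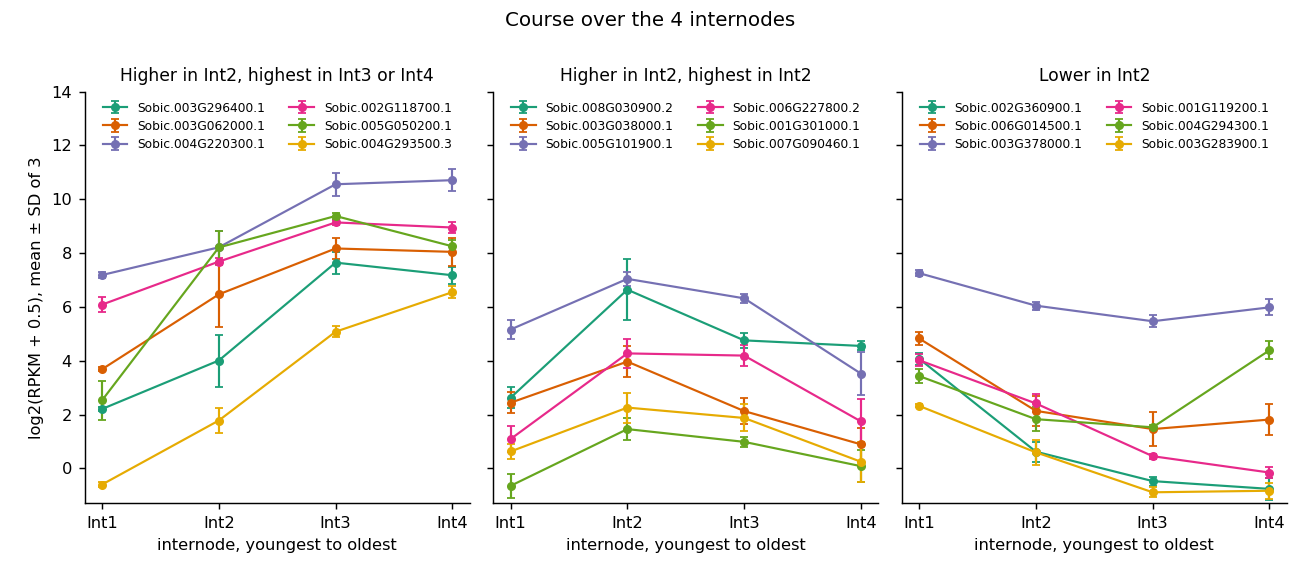
Level on a log2 scale (mean ± SD of 3 libraries, y axis) in the 4 internodes from youngest to oldest (x axis) for 6 transcripts that rose in Int2 and were highest in Int3 or Int4 (left), 6 that rose and were highest in Int2 (middle) and 6 that fell in Int2 (right). The CESA8 match Sobic.003G296400.1 climbs most between Int2 and Int3, the lipid transfer protein Sobic.008G030900.2 peaks in Int2, and Sobic.004G294300.1 returns in Int4.

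For 10 transcripts, taken from those it found to differ between internodes, the study designed primers for quantitative real-time PCR. Over all transcripts tested, 3.41% were called. Of the 10, 2 were called at this step in the main fit, both higher in Int2, and their oligonucleotides are shown for that reason. All bases are in lower case and run 5′ to 3′.
Sobic.009G241600.1 forward: tcacatcttgcctgtgtgct
Sobic.009G241600.1 reverse: cggtaatgccattgtcacag
Sobic.001G494000.1 forward: cgtgggtatacgatggtcac
Sobic.001G494000.1 reverse: ccctccttaattccccactg
The transcripts have no annotation in the sources used here. Sobic.001G494000.1 had 3.32, 3.19 and 1.11 RPKM in Int2, against 0.21, 0.4 and 0.31 RPKM in Int1 (log2 fold change 1.82, SE 0.28, adjusted p = 0.00237). Sobic.009G241600.1 had 3.86, 3.52 and 0.99 RPKM in Int2, against 0.61, 0.87 and 0.41 RPKM in Int1 (log2 fold change 1.41, SE 0.41, adjusted p = 0.0407). In both, replicate 3 was the lowest Int2 library and still above Int1. The call of Sobic.009G241600.1 was lost with plant as a block in the 12 libraries (adjusted p = 0.0579), with a pseudocount of 1 (0.0562), without a filter on low values (0.0632), when Int4 replicate 2 was left out of the fit, and without Int2 replicate 1 or 2 or Int1 replicate 1, 2 or 3 (log2 fold change 1.14 to 1.56, adjusted p = 0.0631 to 0.146). The other 8 were not called in the main fit. Of these, Sobic.005G017500.1 came nearest among the lower ones, with 7.88, 8.98 and 9.01 RPKM in Int2, against 15.2, 13.4 and 20.6 RPKM in Int1 (log2 fold change -0.87, SE 0.21, adjusted p = 0.02). Sobic.003G328500.1 was the most abundant in Int1, with 41.2, 42.7 and 58.5 RPKM in Int2, against 64.1, 67.8 and 75.9 RPKM in Int1 (log2 fold change -0.56, SE 0.46, adjusted p = 0.421). Some of these 8 were called in other settings. Sobic.008G112200.1 was called higher with median-ratio scaling (log2 fold change 1.007, adjusted p = 0.0176) and with a pseudocount of 0.1 (1.112, adjusted p = 0.0175). Sobic.005G085000.1 was called higher without Int2 replicate 3 (1.074, adjusted p = 0.00325). Sobic.005G017500.1 was called lower without Int1 replicate 2 (-1.001, adjusted p = 0.0262).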

How the data were processed

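The authors aligned single-end RNA-seq reads of 12 libraries to the 47205 transcripts of the sorghum v3.1 annotation with CLC Genomics Workbench, tested counts with edgeR, and deposited 1 table of RPKM values with 2 decimals. Strand use is not given in the sources used here. Counts and transcript lengths were not used here, so no counting interval was computed, and precision rests on the 3 plants. Reads shared by transcripts of a gene, or by genes nearly alike, may have been split among them.

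Columns were matched to samples by title (0 unmatched). RPKM of at least 1 on average in Int2 or Int1 was required, and log2(RPKM + 0.5) was fitted by internode over all 12 libraries in limma 3.58.1 under R 4.3.3 (8 residual and 3.57 prior degrees of freedom), a prior following the mean level, and Benjamini-Hochberg adjustment over all 24255 transcripts. All fold changes are on this scale, which understates those of low transcripts. The thresholds of the stricter call (adjusted p of 0.001, 2-fold, mean RPKM of 2) are the study's. Its test, edgeR on counts, differs, so the numbers of calls here are not the study's. The fit was tested on simulated data.

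The 4 internodes came from the same 3 plants. Deviations from the internode mean correlated between same-numbered Int2 and Int1 libraries over transcripts (r of 0.133, 0.11 and 0.141, against -0.136 to -5.77e-05 for other pairs), so plant was also fitted as a block. Deviations from a mean of 3 libraries sum to 0, which pushes the other pairs down when same-numbered pairs are positive. The contrast is therefore partly built in.

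Genes to name were drawn from the 15 largest increases at the stricter threshold and 15 decreases. The decreases were the 10 genes of the stricter threshold, then the 5 largest of the wider. Up to 4 called members and the most abundant member of each category were added, as were the qRT-PCR transcripts. Not all of these are given in the text. Others were named after their values were seen. Members, lists and tests were chosen with earlier results of these data known. Categories and gene matches come from the study's functional table. A further 34 lists, cell type markers among them, needed gene descriptions. The reference table used here pairs none with these identifiers (0 loci matched), so no cell type check was made. Alternatives were pseudocounts of 0.1 and 1, other filters, median-ratio scaling, locus sums, library weights, the 6 libraries alone, the plant block and leaving out each library. Python 3.11.15, pandas 2.3.3, numpy 2.4.6 and matplotlib 3.10.9 made tables and plots.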

Additional observations from a re-analysis of the deposited data

How the results depend on the processing

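Calls at the stricter threshold (133) numbered 262 on RPKM summed over the transcripts of a locus, 293 with library weights, 86 without a filter on low values, 77 when both internodes had to average 2 RPKM, 84 with plant as a replicate block in all 12 libraries, and 0 in the 6 libraries alone, with the replicate block (smallest adjusted p 0.00146, 9642 at an unadjusted p under 0.05) or without it (0.00181 and 9045). Leaving out 1 library gave 33 (without Int2 replicate 2) to 228 (without Int2 replicate 3). The wider calls (827) fell to 444 only when both internodes had to average 2 RPKM. They numbered 789 with the replicate block in 12 libraries and 934 in the 6, 672 to 930 in the other settings with all libraries, and 581 to 1038 when 1 library was left out.

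Of the 102 called transcripts that were named or belong to a category, none changed direction. The block in 12 libraries kept 98 of them, the block in the 6 libraries 102, median-ratio scaling 99, locus sums 100, a pseudocount of 1 kept 92 and of 0.1 kept 101, no filter on low values 98, and a mean RPKM of 2 in both internodes 51, which by construction removes transcripts low in one internode. Leaving out an Int2 or Int1 library kept 79 to 97. Direction turned only in transcripts near 0 that were not called. Sobic.003G338700.1 (reported at -0.004) was at 0.080 with median-ratio scaling, and at -0.14 (without Int1 replicate 2) to 0.11 (without Int1 replicate 3) when 1 library was left out, 0.018 without Int1 replicate 1 and 0.096 without Int2 replicate 2 among them. Sobic.004G117400.1 (0.01) was at -0.064, -0.029 and -0.039 without Int1 replicate 1, Int2 replicate 1 or Int2 replicate 2, and at 0.097 without Int2 replicate 3. The cause of these changes was not tested. RPKM without counts leaves the precision of low transcripts unknown.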
